A study of Rattus norvegicus with 8 samples.

Results

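A set of 7 genes for axon guidance and neural adhesion was followed in the adult rat medial prefrontal cortex after a juvenile course of fluoxetine. They are the guidance receptors Nrp1, Plxna2, Unc5a and Ephb6, the cadherins Cdh8 and Cdh23, and the contactin Cntn6. They have 8 probes among the 582 probes, or 530 named genes, that the authors listed as higher or lower, out of 15207 on the array. The genes were selected on the measured difference itself, because a probe entered those lists by its mean log2 value in treated samples (at least 0.4 or at most -0.4), its p-value (at most 0.05) and its detection flags. Their differences are therefore a description and carry no test of their own.

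The JFLX group (4 samples) received fluoxetine, a serotonin reuptake inhibitor, at 10 mg/kg from postnatal day 28 to 48, and the CONTROL group (4 samples) received vehicle, a 5% sucrose solution, over the same days. Total RNA of the whole medial prefrontal cortex was taken from rats of 6 months and hybridised with the dye Cy3 to custom Agilent arrays, 1 sample per array. The labels name no strain or sex and do not say that each sample is a separate animal, so the p-values measure the spread between these samples only, and that spread may be partly technical. The descriptions of CONTROL replicates 2, 3 and 4 mention fluoxetine, while their titles and source names call them controls, and the titles were followed. The read-me sheet puts the CONTROL arrays and the JFLX arrays in separate position blocks of 1 slide, so position and treatment cannot be told apart. In bulk tissue, fewer cells of a type and less RNA per cell cannot be told apart either.

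Guidance receptors sit on growth cones and, in the mature brain, also on synapses and dendrites, where they read secreted or membrane-bound cues. Class 3 semaphorins bind neuropilins, which signal through plexins as partners; netrins bind DCC and UNC5 receptors; and ephrins bind Eph receptors. Cadherins are calcium-dependent adhesion molecules that bind mostly their own kind on the next cell, and contactins are immunoglobulin-type adhesion molecules anchored to the membrane by a lipid.

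Each probe is a 60-base oligonucleotide, and the probe sequences below, as deposited, show what was measured for the 4 receptors. Their matched positions in the deposited table span more than 60 bases, so each match is split over the genome. No base is in capitals because no motif was searched in them.
Nrp1: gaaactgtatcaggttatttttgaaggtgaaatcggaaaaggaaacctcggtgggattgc
Plxna2: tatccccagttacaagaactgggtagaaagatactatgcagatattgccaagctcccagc
Unc5a: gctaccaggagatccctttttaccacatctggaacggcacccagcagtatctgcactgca
Ephb6: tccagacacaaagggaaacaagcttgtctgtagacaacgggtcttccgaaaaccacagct

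No source used here names the genome build of these positions. The Nrp1 probe was placed at chr19:58487361-58487852, a span of 492 bases. The Plxna2 probe lies at chr13:110939534-110940268 (735 bases), the Unc5a probe at chr17:15671251-15671394 (144 bases) and the Ephb6 probe at chr4:69600228-69600782 (555 bases). The probes of Cdh8 (chr19:5938572-5938631), Cdh23 (chr20:27636293-27636352) and Cntn6 (chr4:140682843-140682902) each match 60 unbroken bases. Nrp1 and Cdh8 thus share chromosome 19, and Ephb6 and Cntn6 share chromosome 4. The GC content of the 7 probe sequences ran from 35.0% in Cdh8 and Cdh23 to 53.3% in Unc5a, against a median of 45% over the listed probes.

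Over the 7 genes, 4 had higher mean values in JFLX (Nrp1, Unc5a, Ephb6 and Cdh8) and 3 had lower ones (Plxna2, Cdh23 and Cntn6). All values below are deposited log2 values, set at each probe so that the 4 CONTROL arrays have a median of 0, so a value is a distance from the controls and not a level, and probes cannot be ranked by level. The median difference between JFLX and CONTROL was taken with 1 probe per gene, for Nrp1 the first of its 2 spots. It was 0.52 over the 4 higher genes and -0.44 over the 3 lower genes. The corresponding medians over all named listed genes were 0.56 and -0.59, and the median over all 15207 probes was 0.04. Within the authors' higher list the 5 probes of these genes ranked from 176 to 315 of 322 by size of difference, and within the lower list from 198 to 225 of 260. They therefore stand in the smaller part of both lists.

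Nrp1 encodes neuropilin-1, the binding partner of semaphorin 3A and also of vascular endothelial growth factor. It is spotted 2 times with the same sequence. The first spot had values of 0.46, 0.64, 0.58 and 0.60 on JFLX arrays 1 to 4, against 0.33, -0.04, 0.04 and -0.20 on CONTROL arrays 1 to 4. The 4 JFLX arrays lay above all CONTROL arrays, with a gap of 0.13 to CONTROL replicate 1. The difference was 0.54 ± 0.13 (SE, n = 4 per group), a 1.45-fold difference.

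The second Nrp1 spot read 0.26, 0.36, 0.59 and 0.48 in JFLX, against 0.33, -0.11, 0.11 and -0.18 in CONTROL. Here JFLX replicate 1 fell below CONTROL replicate 1, so the groups overlapped, and the difference was 0.38 ± 0.14 (SE), or 1.30-fold. In the CONTROL arrays the 2 spots differed by at most 0.07, while in JFLX they differed by 0.20, 0.28, 0.00 and 0.12, the largest on replicate 2. Averaged over both spots, Nrp1 ran from 0.36 to 0.59 in JFLX and from -0.19 to 0.33 in CONTROL, a difference of 0.46. The same-sequence spots of Nrp1 had a standard deviation of 0.09 within an array. Over the 25 sequences listed more than once, that standard deviation had a median of 0.10 and ran from 0.05 to 0.54. The Nrp1 pair was close to typical of these. The group differences of its 2 spots were 0.16 apart, where the median over those sequences was 0.06. Spots outside the authors' lists were not counted, so the agreement between spots was partly set by the listing.

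Plxna2 encodes plexin A2, a receptor that pairs with neuropilins for class 3 semaphorins and binds class 6 semaphorins directly. It stood at -0.53, -0.47, -0.27 and -0.55 in JFLX, against -0.15, -0.01, 0.01 and 0.06 in CONTROL. All JFLX arrays lay below all CONTROL arrays, with a gap of 0.11 between JFLX replicate 3 and CONTROL replicate 1. The difference was -0.43 ± 0.11 (SE, n = 4 per group), that is 1.35-fold lower in JFLX. Nrp1 and Plxna2, which can join in one receptor complex, were thus listed in opposite directions. Within an array the first Nrp1 spot minus Plxna2 was 1.03 ± 0.14 in JFLX and 0.05 ± 0.31 in CONTROL (SD, n = 4 each). The direction of this difference was fixed by the listing. It was taken for the first Nrp1 spot only, because 1 probe stood for each gene. The second spot, whose groups overlapped, had a smaller difference between JFLX and CONTROL (0.38, against 0.54 for the first).

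Unc5a encodes a netrin receptor that mediates repulsion. Its values were 0.25, 0.49, 0.30 and 0.68 in JFLX, against -0.03, 0.04, 0.03 and -0.12 in CONTROL. The CONTROL arrays were close together (SD 0.07) and the JFLX arrays were more spread (SD 0.19), and the gap of 0.21 between the groups was the widest among the 8 probes. The difference was 0.45 ± 0.12 (SE), or 1.37-fold.

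Ephb6 encodes an Eph receptor for B-type ephrins that lacks kinase activity. It read 0.32, 0.64, 0.55 and 0.90 in JFLX, against 0.49, 0.03, -0.28 and -0.03 in CONTROL. CONTROL replicate 1 lay above JFLX replicate 1, so the groups overlapped, and the spread was wide in both (SD 0.24 in JFLX and 0.32 in CONTROL). The difference of 0.55 ± 0.19 (SE), or 1.47-fold, was numerically the largest of the 8 and had the largest standard error.

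Cdh8 encodes cadherin-8, a type II classical cadherin found at synapses. It stood at 0.84, 0.41, 0.43 and 0.28 in JFLX, against 0.17, -0.08, 0.08 and -0.19 in CONTROL. The groups did not overlap, with a gap of 0.11, and JFLX replicate 1 was well above the other 3 JFLX arrays. The difference was 0.50 ± 0.15 (SE, n = 4 per group), and it was 0.38 without JFLX replicate 1.

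Cdh23 encodes cadherin-23, a long atypical cadherin best known from the tip links of sensory hair cells. Its values were -0.35, -0.31, -0.91 and -0.34 in JFLX, against -0.14, 0.09, 0.09 and -0.09 in CONTROL. The groups did not overlap, but JFLX replicate 3 stood far below the other 3 JFLX arrays. The difference was -0.47 ± 0.16 (SE), and it was -0.32 without JFLX replicate 3. It was flagged as detected on 3 of the 4 JFLX arrays. The other 7 probes were detected on all 4 arrays of both groups.

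Cntn6 encodes contactin-6, also called NB-3, a neural adhesion molecule that acts in neurite growth and synapse formation. It read -0.43, -0.23, -0.42 and -0.69 in JFLX, against -0.13, 0.13, -0.16 and 0.15 in CONTROL. The gap between the groups was 0.07, the narrowest among the probes whose groups did not overlap. The difference was -0.44 ± 0.14 (SE), that is 1.36-fold lower in JFLX.

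**Figure D1:**
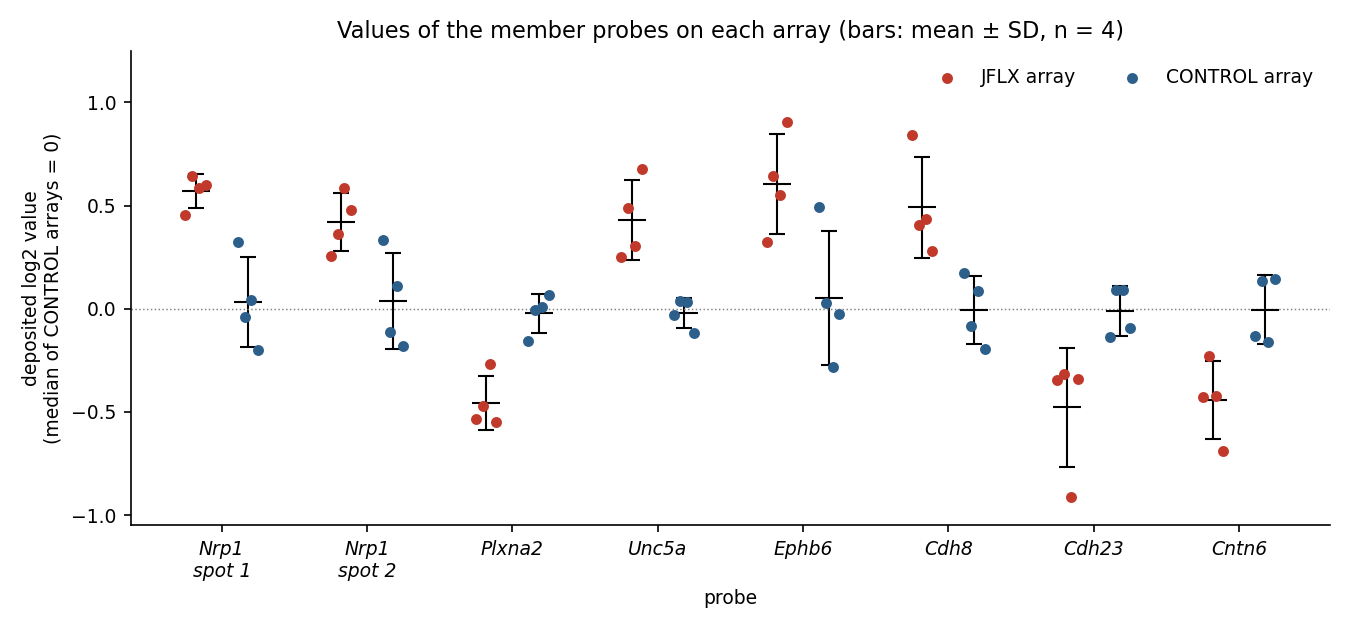
Deposited log2 values (vertical axis, median of the CONTROL arrays at 0) of the 8 probes on each of the 4 JFLX arrays (red, left) and 4 CONTROL arrays (blue, right), with the mean ± SD in black. The groups overlap for the second Nrp1 spot and for Ephb6, and 1 JFLX array of Cdh23 stands at -0.91.

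The values that chose these genes came from this same contrast, and the following counts are given without a reading. JFLX lay wholly above CONTROL at 3 of the 5 probes of the higher genes, where 10.0% of all probes did, and wholly below at all 3 probes of the lower genes, where 2.95% did. In a limma fit over all 15207 probes, 0 of the 8 probes passed an adjusted p of 0.05 (Benjamini-Hochberg), with adjusted p from 0.0521 for the first Nrp1 spot to 0.237 for the second. Over the whole array 6.25% of probes passed, 5.89% in the higher direction and 0.355% in the lower. This background includes probes that are past the authors' fold and p but not in their lists, 1088 higher and 29 lower. After quantile normalization the limma fit called 0 probes, and 1298 had an unadjusted p under 0.05. The deposited values are centred on the CONTROL arrays, whose SD over all probes was 0.35 to 0.52, against 0.64 to 0.74 in JFLX. Quantile normalization gives all arrays 1 distribution, so it narrows the JFLX values and widens the CONTROL values by construction. No conclusion is drawn from its counts. All 8 probes had an unadjusted limma p under 0.05, as did 2350 probes over the array. The count of 0 genes became 1 without CONTROL replicate 1 (Nrp1, first spot, adjusted p = 0.0171) and 1 without JFLX replicate 3 (Plxna2, adjusted p = 0.0437). With arrays centred on their 75th percentile, Plxna2 and Cdh23 passed (adjusted p = 0.0262 and 0.0449), and the split of all calls moved to 682 higher and 221 lower, against 896 and 54. The mean JFLX value nearest the authors' fold threshold was 0.42 for the second Nrp1 spot and -0.44 for Cntn6, and the nearest probes past the p-value but outside the threshold, which are unnamed here, stood at 0.399 and -0.398.

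The intensities before normalization between arrays give the same genes on another scale. They are background-subtracted, in arbitrary units, and their columns are labelled with a group but not with a replicate. One JFLX array was dimmer than the others, with a median of 32.5 over the listed probes where the other 3 JFLX arrays had 57.3, 58.0 and 63.5 and the CONTROL arrays ran from 36.7 to 51.0. That array was the dimmest JFLX array for all 8 probes.

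The first Nrp1 spot read 52.8, 84.6, 93.1 and 98.2 in JFLX and 52.9, 55.1, 67.4 and 77.0 in CONTROL, in ascending order. Plxna2 read 53.4, 95.8, 96.8 and 122 in JFLX and 121, 124, 143 and 155 in CONTROL. In Cdh23 the JFLX arrays read 11.2, 14.1, 19.5 and 19.7 and the CONTROL arrays 22.7, 23.1, 23.2 and 30.0. Of the 8 probes, this one alone had groups that did not overlap in intensity.

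On log2 intensity the differences were smaller for the higher genes and larger for the lower ones. They came to 0.36 for the first Nrp1 spot, 0.20 for the second, 0.27 for Unc5a, 0.37 for Ephb6 and 0.32 for Cdh8. For Plxna2, Cdh23 and Cntn6 they came to -0.61, -0.65 and -0.62. An alternative added after the data were seen left out the dim JFLX array. The differences were then 0.56, 0.39, 0.40, 0.48 and 0.59 for the probes of the higher genes, in the same order. For those lower genes they were -0.37, -0.49 and -0.33. All 8 probes kept the direction of their difference in both versions. With all arrays, the difference on log2 intensity lay below that of the deposited values by the same amount at all 8 probes. Without the dim array, it lay above the deposited difference without JFLX replicate 4, again by the same amount at all 8 probes. For the first Nrp1 spot these were 0.56 and 0.53, and for Plxna2 -0.37 and -0.40. The dim array thus matches JFLX replicate 4.

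**Figure D2:**
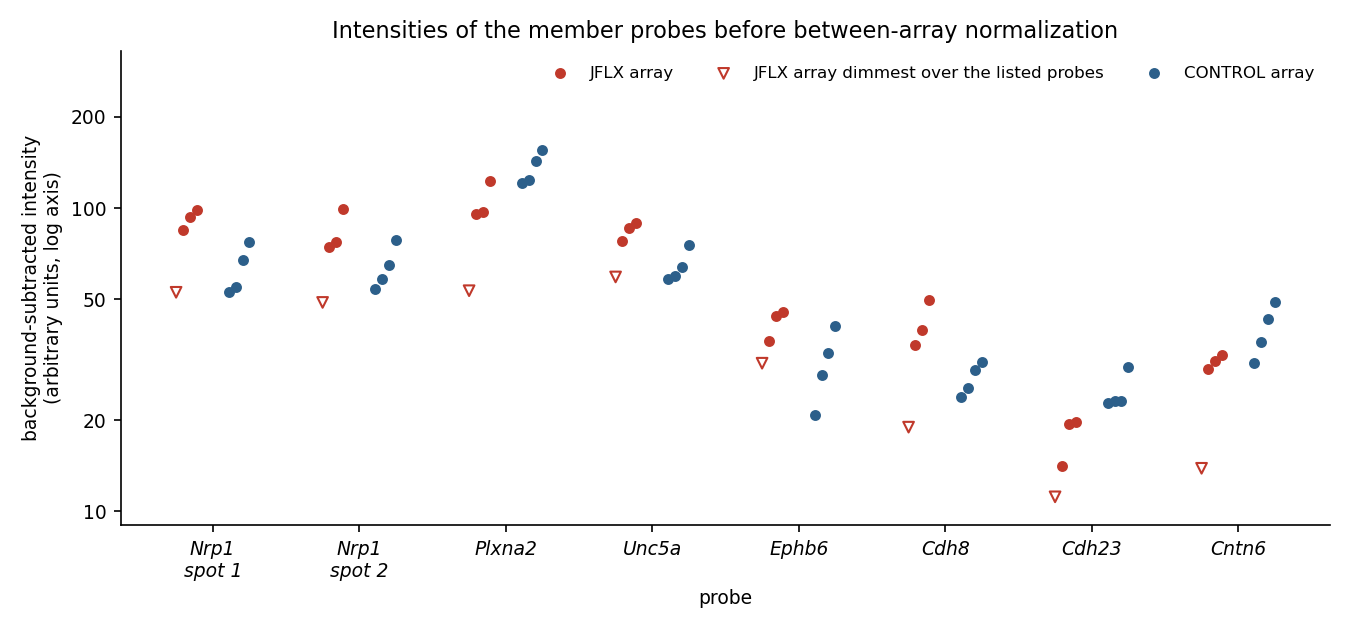
Background-subtracted intensity (vertical axis, arbitrary units, log axis) of the 8 probes on the JFLX arrays (red, left) and CONTROL arrays (blue, right), sorted within each group, before normalization between arrays. The open triangle is the JFLX array that is dimmest over the listed probes, and it is the lowest JFLX point at every probe.

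A difference between 2 genes on the same array does not depend on how that array was scaled. The mean of the 4 higher genes (first Nrp1 spot) minus the mean of the 3 lower genes was 0.90, 0.88, 1.00 and 1.14 on JFLX arrays 1 to 4, against 0.38, -0.09, -0.01 and -0.17 on CONTROL arrays 1 to 4. CONTROL replicate 1 was nearest to the JFLX arrays. The means were 0.98 ± 0.12 in JFLX and 0.03 ± 0.24 in CONTROL (SD, n = 4 each), a difference of 0.96, and the same difference taken on log2 intensity was also 0.96. The 12 pairs of a higher and a lower gene gave differences between the groups from 0.88 (Unc5a minus Plxna2) to 1.02 (Ephb6 minus Cdh23). The sign and much of the size of these values were fixed when the genes were chosen, so no change is read from them. They also do not show which of the 2 genes differed. The equal value on log2 intensity follows because the scaling of an array cancels, and it adds no evidence.

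**Figure D3:**
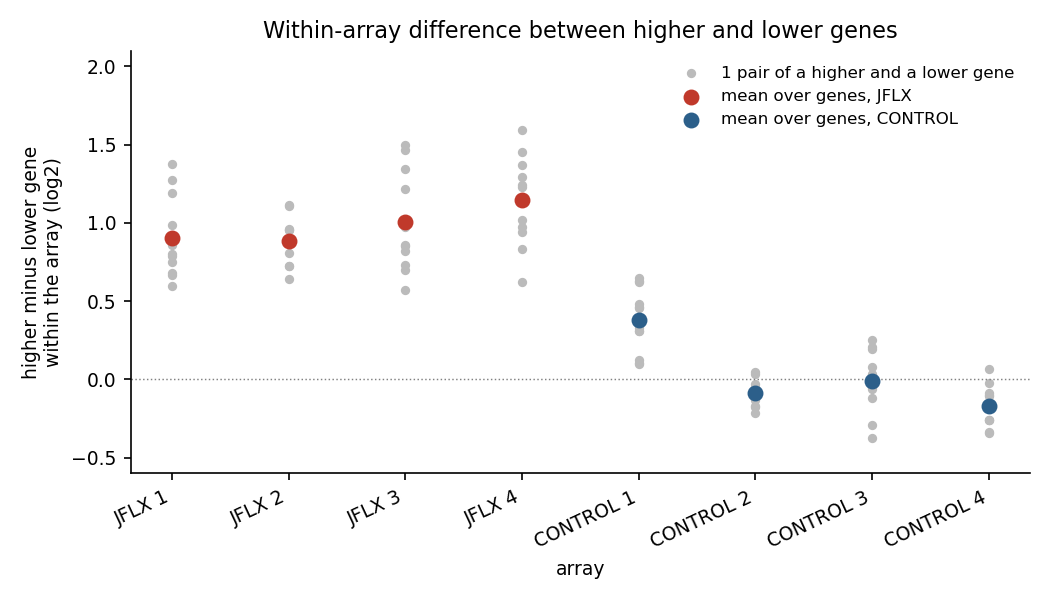
Difference between higher and lower genes within each array (vertical axis, log2) for the 12 gene pairs (grey) and for the mean over genes (red for JFLX, blue for CONTROL). The means lie between 0.88 and 1.14 in JFLX and between -0.17 and 0.38 in CONTROL, with CONTROL replicate 1 at the top of its group.

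Around their group means the 7 genes did not vary as one block. Deviations from the group means were correlated over the 8 arrays as a description, with the first spot for Nrp1. The correlation ran from -0.62 (Plxna2 with Cdh23) to 0.67 (Nrp1 with Ephb6) over the 21 gene pairs. Its median was -0.17, and 7 pairs were above 0 and 14 below. In CONTROL replicate 1 both Nrp1 spots, Ephb6 and Cdh8 had their highest CONTROL value, and Plxna2 and Cdh23 their lowest.

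Other named genes tracked single members more closely, over the same 8 arrays and 523 named genes outside the 7. Nrp1 was represented by its first spot, and the second spot was not used. For Nrp1 the closest were Ablim1, an actin-binding protein (r = 0.94), and Wasf2, a regulator of actin branching (r = 0.93). For Plxna2 they were Cabp7 (0.94) and Xylt1 (0.93), and for Unc5a Klf3 (0.93) and Tab2 (0.92). The focal adhesion kinase Ptk2 and Myrip came closest to Ephb6 (0.90 each), Gcnt3 (0.86) and Kcng1 (0.81) to Cdh8. P2rx2 (0.95) and Gnb1l (0.95) came closest to Cdh23, and Cenpb (0.97) and Plek (0.94) to Cntn6. These correlations leave out the difference between the groups. Cabp7 (0.81) and Xylt1 (1.07) were higher in JFLX where Plxna2 was lower. Klf3 (-0.80) and Gcnt3 (-0.98) were lower where Unc5a and Cdh8 were higher. The other closest genes differed in the direction of their member. With 8 arrays and 523 candidates, high correlations of this kind are easily found, and all genes on an array share its scaling.

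The rest of the pathway was read from 6 lists of guidance ligands, receptors, effectors, cadherins with catenins, immunoglobulin adhesion molecules and synaptic adhesion organisers, 234 genes in all. Of these, 17 are among the named listed genes, the 7 above and 10 others, and 3 of the 10 passed the limma threshold, all higher in JFLX. Over the array 896 of the 950 probes that passed were higher as well (5.89% of all probes, against 0.355% lower), so nothing is read from that direction. These 10 entered through the authors' lists on the same arrays and are not independent evidence of a direction. Whether the other 217 genes are on the array was not analysed here.

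Among the ligands, 1 of 39 was listed, Sema3a, the semaphorin that binds neuropilin-1. It read 0.45, 0.57, 0.31 and 0.62 in JFLX, against 0.31, -0.19, 0.11 and -0.11 in CONTROL, a difference of 0.46 ± 0.14 (SE, limma adjusted p = 0.134). Its deviations from the group means correlated with those of Nrp1 (first spot) at 0.76 and with those of Plxna2 at -0.74, over 8 arrays. Other pairs of a member and a pathway gene had larger values of either sign, such as Unc5a with Clstn2 (-0.90) and Plxna2 with Alcam (0.81). Nothing is therefore read from these 2 values. JFLX replicate 3 and CONTROL replicate 1 both read 0.31, so the Sema3a groups overlapped.

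Of the 35 receptors, 6 were listed, the 4 described and 2 more, and 0 passed. Plxnb1, a receptor for class 4 semaphorins, stood at 0.42 ± 0.14 (limma adjusted p = 0.170). Epha1 was detected on 0 JFLX arrays and on 3 CONTROL arrays, so no fold is given (limma adjusted p = 0.0603). It passed in 4 of 16 other settings, with adjusted p of 0.0449 with median centring, 0.0215 with 75th percentile centring, 0.0131 with array quality weights and 0.0361 without JFLX replicate 4.

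Of the 39 effectors, 3 were listed, all with higher values. Ablim1, which links guidance signals to actin, rose by 0.95 ± 0.13 (SE, n = 4 per group, limma adjusted p = 0.00288) and read 0.93, 1.13, 0.94 and 0.95 in JFLX, against 0.32, -0.01, 0.01 and -0.17 in CONTROL. It was the most positive difference among the 17 genes. Ptk2 at 0.51 ± 0.15 and the kinase Pak2 at 0.65 ± 0.24 did not pass (limma adjusted p = 0.129 and 0.231). Without CONTROL replicate 2, Pak2 stood at 0.88 and passed (limma adjusted p = 0.0135).

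Of the 53 cadherins and catenins, 5 were listed. Clstn1, a calsyntenin, which is a cadherin-like protein of synapses and axonal transport, rose by 0.55 ± 0.10 (SE, limma adjusted p = 0.0117). Its relative Clstn2 stood at -0.50 ± 0.14 and the neuronal alpha-catenin Ctnna2 at 0.60 ± 0.17, neither past the threshold. Alcam, an adhesion molecule that was the other listed gene beside Cntn6 among 34 of the immunoglobulin type, rose by 0.48 ± 0.11 (limma adjusted p = 0.0441). Over the 16 other settings Alcam did not pass in 14, the replicate block (limma adjusted p = 0.190) and the omission of any 1 of the 8 arrays (adjusted p from 0.0521 to 0.140) among them. Clstn1 did not pass in 5, which include the replicate block (limma adjusted p = 0.0827), and Ablim1 in 2. After quantile normalization, with the limit given above for that setting, the difference of Ablim1 was 0.58 (limma adjusted p = 0.276). Of the 34 synaptic adhesion organisers, 0 were listed.

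**Figure D4:**
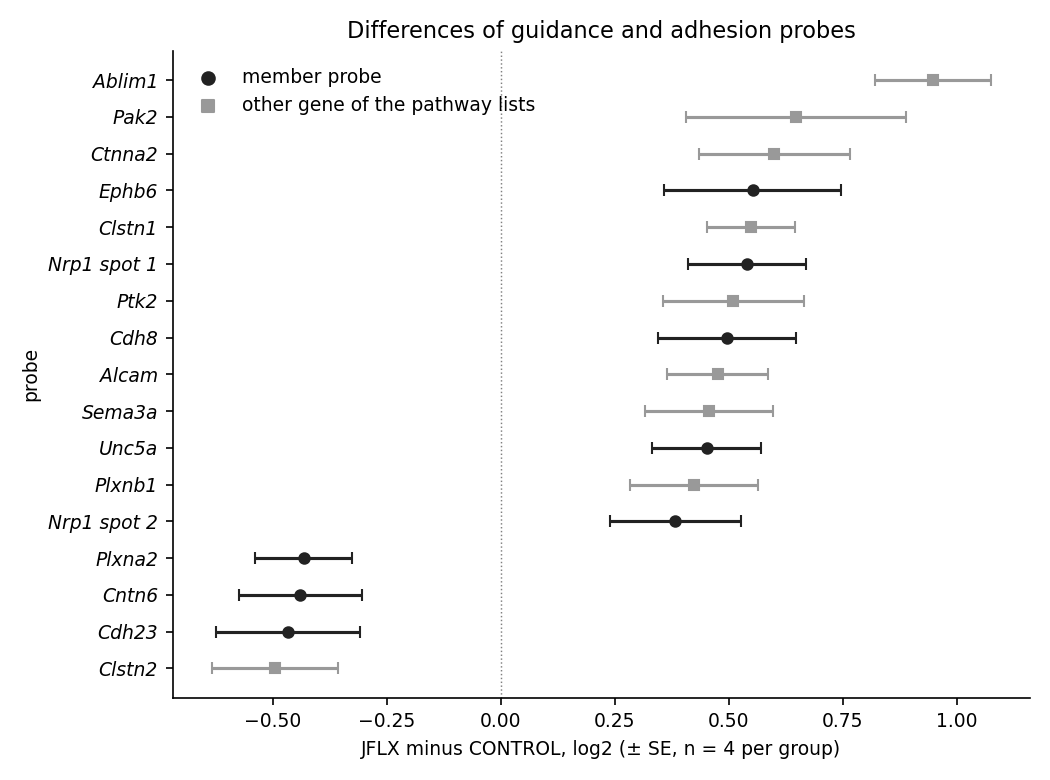
Difference between JFLX and CONTROL (horizontal axis, log2, ± SE, 4 arrays per group) for the member probes (black circles) and the other listed genes of the pathway lists (grey squares). Ablim1 is the highest at 0.95, and Plxna2, Cntn6, Cdh23 and Clstn2 are the 4 plotted genes below 0. Epha1 is left out because it was detected on 0 JFLX arrays.

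The tissue label could not be checked against most of its markers. Of 53 cell type markers in 10 lists, 5 are among the named listed genes, and values of the others were not analysed here. The excitatory neuron genes Camk2a and Neurod2 stood at 0.56 ± 0.19 and -0.46 ± 0.15, the endothelial gene Pecam1 at 0.68 ± 0.25, and the fibroblast gene Lum was detected on 0 JFLX arrays. The astrocyte gene Glul fell by 0.51 ± 0.11 (limma adjusted p = 0.0362). It passed in 5 of the 16 other settings and did not in 11, among them the replicate block (adjusted p = 0.104) and the omission of any 1 array other than JFLX replicate 4 (adjusted p from 0.0639 to 0.112). The part of cell makeup in the values of the 7 genes was not tested.

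RefSeq (assembly GRCr8) gives 1 promoter window for each of the 7 genes. The window holds the start of the annotated gene for 3 of them (Nrp1, Unc5a and Ephb6). For the other 4 it lies inside the gene, 8.13 kb from its start for Plxna2, 5.66 kb for Cdh8, 227 bases for Cntn6 and 42 bases for Cdh23, so these windows do not describe the first start. The windows held between 6 (Cntn6) and 43 (Cdh23) CG dinucleotides, where the median over 33469 promoters was 7. The counts for Nrp1, Plxna2, Unc5a, Ephb6 and Cdh8 were 18, 24, 37, 20 and 18. The higher and lower genes thus did not divide by CG count. Neither TATAAA nor its reverse complement TTTATA occurred in any of the 7 windows, while 14.2% of all promoter windows held 1 of them.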

How the data were processed

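The deposited value table holds log2 values for 15207 probes on 8 arrays, centred by the authors on the CONTROL median at each probe, with 0 values missing. The authors' lists, per the file headers, give background-subtracted intensity per array, log2 group means, a p-value and the count of arrays with a detected flag. The scanner software, background method and normalization are not given in the sources used. A further 16 columns per list, with per-array folds and flags, were left aside. RNA input was 500 ng per the labels.

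Of the 582 listed probes, 565 have a symbol, 551 through their gene ID in RefSeq (GRCr8). Cdh8 kept the name in the file. Probes of the whole table were fitted together with limma 3.58.1 (lmFit and eBayes) in R 4.3.3 as a two-sided test, adjusted by Benjamini-Hochberg across the 15207 probes (threshold 0.05). Differences are JFLX minus CONTROL and SE is the moderated standard error. The fit was tested on simulated data. Tables and plots were made with Python 3.11.15, pandas 2.3.3 and matplotlib 3.10.9. The number of arrays limits the precision. The members, gene lists and marker lists were chosen with earlier results of these data known. Named are the 7 members, every listed gene of the lists, and the 2 named genes closest to each member. The earliest probe in the table stood for a gene.

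Alternatives were a replicate block, quantile normalization, array quality weights, centring on the 75th percentile or median, a trended robust eBayes, a classical test with equal variances, leaving out each array, log2 intensity, and leaving out unlisted probes past the authors' fold and p. A refit restricted to probes with 3 or more detected arrays in each group was not run, since flags were read only for listed probes, and all 8 member probes meet that filter.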

Additional observations from a re-analysis of the deposited data

Results flagged for a closer look

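Among the 16 groups of 4 arrays formed by the 8 probes, 1 held an array that stood apart by Dixon's test, where chance gives about 1 in 20, or 0.8. It was Cdh23 in JFLX, where replicate 3 read -0.91 and the other 3 arrays read from -0.35 to -0.31. The gap made up 0.946 of the group's range, above the critical value for 4 arrays.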

How the results depend on the processing

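None of 144 values of the 8 probes changed direction, though settings that only change the variance or the probes tested could not change it. Relative to a shift of -0.19 in the median of all probes with 75th percentile centring, the differences of Nrp1, Unc5a, Ephb6 and Cdh8 shrank and those of Plxna2, Cdh23 and Cntn6 grew by construction. The genes past the limma threshold numbered 0. They were 2 with 75th percentile centring (Plxna2, Cdh23, where 903 probes passed), 2 with array quality weights (Nrp1, Plxna2, where 1160 passed), 1 with the classical equal-variance test (Plxna2, where 808 passed), and 0 to 1 without a single array (780 to 907 passed). With the replicate block they were 0, and 764 probes passed, against 950. Deviations of same-numbered arrays correlated at -0.04, 0.40, 0.12 and -0.28. No label says what a number marks, and these values cannot decide whether same-numbered samples share a litter, day or batch. Quantile normalization left 0 probes (1298 at unadjusted p under 0.05), with the limit given above. Leaving out the unlisted probes past the authors' fold and p (1088 higher and 29 lower) left 6. Fewer small p-values raise the others by construction. The cause of the other changes was not tested. Over all settings, differences ran from 0.29 to 0.64 for the first Nrp1 spot, 0.16 to 0.48 for the second, 0.26 to 0.51 for Unc5a, 0.32 to 0.70 for Ephb6, 0.29 to 0.59 for Cdh8, -0.63 to -0.37 for Plxna2, -0.66 to -0.32 for Cdh23 and -0.63 to -0.33 for Cntn6.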
